A study of Mus musculus with 32 samples.

Results

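The genes described here are 36 genes of glycolysis and of the transcriptional response to low oxygen, taken by symbol from the gene count matrix of mouse haematopoietic stem and progenitor cells. All 36 were found among the 24421 genes of the matrix, and all 36 passed the filter on low counts, which left 14154 genes for testing. RNA was sequenced from 8 bone-marrow fractions of female C57BL/6 mice with no transgene or treatment named for any group, at 10 weeks of age (Young) and at 20 months of age (Aged). The fractions were haematopoietic stem cells (HSCs), 4 fractions of multipotent progenitors (MPPs, numbered MPP1 to MPP4), and the progenitors of granulocytes with macrophages (GMPs), of megakaryocytes with erythroid cells (MEPs) and of lymphocytes (CLPs). All were sorted by surface proteins, HSCs for example as CD150+ cells without CD34, CD48 and Flt3 among the lineage-negative, Sca-1+ and c-kit+ marrow. Each of the 16 groups held 2 libraries, sorted as duplicates from marrow pooled by age. Errors and p-values therefore describe the spread between sorts of pooled marrow and may not cover the spread between mice. The comparison asked of each fraction was which of these genes differ between Young and Aged cells, and the fractions were also set against each other within Young mice.

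Glycolysis splits glucose into pyruvate in the cytosol, and yields ATP without oxygen as long as lactate dehydrogenase turns pyruvate into lactate and regenerates NAD+. When oxygen is scarce, the prolyl hydroxylases Egln1, Egln2 and Egln3 no longer mark the hypoxia-inducible factors Hif1a and Epas1 for destruction by the von Hippel-Lindau protein (Vhl). The stabilised factors bind promoters with the core letters ACGTG or GCGTG and raise transcription of glucose transporters, glycolytic enzymes, pyruvate dehydrogenase kinases and Vegfa. Adult stem cells of the marrow reside in a low-oxygen niche and are known for a high reliance on glycolysis, whereas cycling progenitors use mitochondrial respiration more.

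The deposited values were read counts, 11237384 to 17723245 per library, and the 36 genes together took 0.709% to 1.60% of them. Levels are given as CPM, read counts scaled to equal library size with a trimmed-mean factor, and, where genes are set against each other, as CPM per kilobase of exon. A gene was called where the edgeR quasi-likelihood test gave an adjusted p below 0.01 among all genes tested, and each log2 fold change is followed by its standard error. Of the sorting markers, Slamf1 and Flt3 followed the gates in the Young fractions compared, and the others are not compared here. Slamf1 was at 52.4 to 55.4 CPM in Young HSCs and 1.63 to 1.94 in Young MPP3. Flt3 was at 1059 to 1066 in Young MPP4 and 26.5 to 29.3 in Young HSCs. Fcgr3 was at 473 to 489 in Young GMPs, the erythroid factor Klf1 at 974 to 1030.4 in Young MEPs and Il7r at 157 to 159 in Young CLPs. In bulk samples of this kind, fewer cells of a type and less RNA per cell cannot be told apart. Several members have near-identical copies elsewhere in the genome or share stretches with another gene. Of the 60-base stretches of the Gapdh transcript, 81.6% occur in other annotated genes, as do 69.5% for Eno1, 67.8% for Pgk1, 55.6% for Bnip3 and 41.1% for Pgam1. The share was 28.0% for Pkm, 21.7% for Ldhb, 21.4% for Bnip3l, 20.3% for Gpi1, 16.9% for Pfkp (with Pitrm1) and 10.4% for Ldha. Their counts are uncertain to the extent that the counting split such reads.

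The 250 bases before the transcription start of the pair of lactate dehydrogenase genes, of phosphoglycerate kinase and of the lactate transporter are printed because the results turn on these 4 genes (RefSeq, GRCm38.p6, 5′ to 3′ along each gene's strand). Ldha has 2 such windows in RefSeq, and the one with more matches to the motifs below is shown. The windows lie at chr7:46845554-46845803, plus strand for Ldha, chrX:106186850-106187099, plus strand for Pgk1, chr3:104638414-104638663, plus strand for Slc16a1 and chr6:142507958-142508207, minus strand for Ldhb. No window of the 4 holds an annotated exon base, and the Ldha window lies within the annotated span of Ldha itself, upstream of the start used, whereas the other 3 lie outside any gene. Capitals mark the core letters of a hypoxia response element, ACGTG or GCGTG, on either strand, so that the reverse complements CACGT and CACGC are in capitals as well and CACGTG counts once on each strand.
Ldha: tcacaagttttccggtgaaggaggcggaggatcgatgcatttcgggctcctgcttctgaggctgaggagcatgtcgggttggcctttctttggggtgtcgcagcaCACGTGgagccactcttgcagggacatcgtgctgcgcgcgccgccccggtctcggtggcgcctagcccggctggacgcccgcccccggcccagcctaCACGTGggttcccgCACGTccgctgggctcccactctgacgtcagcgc
Pgk1: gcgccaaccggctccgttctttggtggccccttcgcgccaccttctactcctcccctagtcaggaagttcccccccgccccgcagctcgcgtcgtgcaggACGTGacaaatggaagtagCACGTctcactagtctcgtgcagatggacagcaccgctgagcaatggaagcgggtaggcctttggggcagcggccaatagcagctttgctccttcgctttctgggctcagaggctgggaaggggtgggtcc
Slc16a1: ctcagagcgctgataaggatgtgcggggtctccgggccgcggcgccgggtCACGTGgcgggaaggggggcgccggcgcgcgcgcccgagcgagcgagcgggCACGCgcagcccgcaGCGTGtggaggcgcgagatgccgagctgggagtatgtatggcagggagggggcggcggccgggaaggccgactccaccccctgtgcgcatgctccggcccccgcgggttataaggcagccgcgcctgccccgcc
Ldhb: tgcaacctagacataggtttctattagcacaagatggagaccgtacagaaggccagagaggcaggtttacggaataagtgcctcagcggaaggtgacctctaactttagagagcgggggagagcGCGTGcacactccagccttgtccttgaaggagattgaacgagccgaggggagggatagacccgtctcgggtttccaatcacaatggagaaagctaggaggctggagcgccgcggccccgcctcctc

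The printed Ldha window held 5 matches to ACGTG, Pgk1 2, Slc16a1 2 with 2 more to GCGTG, and Ldhb a single GCGTG and no ACGTG, while the other Ldha window held 1 GCGTG. RefSeq promoters were at hand for 33 of the 36 genes, which had 49 such windows, while Epas1, Bnip3l and Slc2a3 had none in the table. ACGTG occurred in 46.9% of the 49 windows, against 16.6% of all 32851 promoter windows of the same length, and either motif in 77.6% against 38.6%. The match is a description of the letters and was not tested for binding in these cells.

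Within Young mice the genes of the lower part of glycolysis had their highest summed level in GMPs, and those of oxygen sensing their lowest in MEPs. In Young GMPs, 19 of the 36 genes were called higher, against 32.1% of all genes tested, and 10 lower, against 32.7%, in the comparison with the mean of the 4 Young MPP fractions. The median log2 fold change of the 36 genes was 0.38, and that of all genes tested -0.10. GMPs thus held more higher genes among the 36 than among all genes, and a similar share of lower ones. In Young MEPs, 6 of the 36 genes were called higher, against 31.3% of all genes tested, and 22 lower, against 39.5%, with a members' median of -0.87 beside -0.29 for all genes. In Young CLPs, 6 of the 36 genes were called higher, against 28.2% of all genes tested, and 20 lower, against 25.2%, with medians of -0.56 and 0.00. In both fractions the share of the 36 genes that was lower exceeded that of all genes. In Young HSCs, 15 of the 36 genes were called higher, against 19.2% of all genes tested, and 7 lower, against 18.9%, with medians of 0.14 and 0.02, and here the excess was on the higher side. These 4 comparisons share the 8 Young MPP libraries.

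Glucose enters through the transporters Slc2a1 (GLUT1) and Slc2a3 (GLUT3), and the hexokinases Hk1, Hk2 and Hk3 trap it as glucose 6-phosphate. Slc2a1 was at 37.7 and 39.8 CPM per kb in the Young HSC libraries, 18.5 to 26.9 across the Young MPPs and 0.639 and 2.15 in Young MEPs. Its log2 difference between Young HSCs and MPPs was 0.90 ± 0.14, adjusted p = 1.77e-05. Slc2a3 stood at 35.4 and 33.0 CPM per kb in Young HSCs and 3.23 and 2.58 in Young GMPs, a log2 difference from the MPPs of 0.50 ± 0.08 and -3.06 ± 0.10. Both transporters were thus higher in Young HSCs than in MPPs, and Slc2a3 was called lower in GMPs, MEPs and CLPs. Hk3, the hexokinase of myeloid cells, was at 869 and 869.9 CPM in Young GMPs, 54.6 to 174 in the Young MPPs and 0.768 and 3.23 in Young MEPs. Hk2, the insulin-responsive hexokinase, was 1.22 ± 0.13 in GMPs and -2.84 ± 0.20 in MEPs on the log2 scale, while Hk1, the constitutive form, was -0.96 ± 0.13 and 0.37 ± 0.11. The Hk1 call in GMPs was lost with offsets for GC content and length, and that in MEPs without either Young MEP library or Young MPP1 replicate 2. Most hexokinase RNA of Young MEPs was Hk1, at 63.2 ± 0.395 CPM per kb (SD, n = 2) against 0.558 ± 0.0611 for Hk2 and 0.543 ± 0.473 for Hk3.

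The first steps after hexokinase are run by Gpi1, the phosphofructokinases Pfkl, Pfkm and Pfkp, the aldolases Aldoa and Aldoc and the triose isomerase Tpi1, with Pfkfb3 making the activator fructose 2,6-bisphosphate. Of these 8 genes, 5 were higher and 3 lower in Young GMPs, 1 and 5 in MEPs, 1 and 5 in CLPs and 4 and 0 in HSCs. The direction of Pfkl in GMPs, -0.32 ± 0.05 on the log2 scale, turned to 0.20 with offsets for GC content and length. The phosphofructokinases differed between fractions: Pfkp, the platelet form, was 1.54 ± 0.07 in GMPs and -0.87 ± 0.09 in MEPs, whereas Pfkm, the muscle form, was -2.06 ± 0.08 and 1.29 ± 0.06 (log2). Pfkm was read at 5.14 to 5.96 CPM per kb in Young GMPs and 52.9 to 59.8 in Young MEPs, and Pfkp at 15.1 to 18.2 and 2.77 to 3.48. The muscle form was thus the more abundant of the pair in MEPs, and the platelet form in GMPs. Aldoa, the main aldolase, was at 265 to 273 CPM per kb in Young HSCs, 137 to 191 in the MPPs and 404 to 426 in GMPs. Aldoc, the brain form, was at 21.4 to 22.0 CPM per kb in Young HSCs and 7.93 to 14.0 in the MPPs, and at 16 and 0 counts in the GMP libraries and 0 and 7 in the MEP libraries.

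The lower part runs from Gapdh through Pgk1, Pgam1 and the enolases Eno1 and Eno2 to the pyruvate kinase Pkm, and yields the ATP of the pathway. Its 6 genes summed to 3303–3488 CPM in Young HSCs, 3469–3612 in MPP1, 10050.5–10068 in GMPs, 2342–2424 in MEPs and 4105–4116 in CLPs, with 5 of the 6 higher in GMPs. Pgam1 was 2.35 ± 0.04, adjusted p = 6.67e-21 in GMPs and -1.67 ± 0.06, adjusted p = 7.76e-17 in MEPs (log2). Pkm was at 2392 and 2417 CPM in Young GMPs, 1215 to 1421 in the MPPs and 70.4 and 71.0 in MEPs, where it was -4.18 ± 0.07 on the log2 scale. MEPs were the fraction with little Pkm, and Pklr, the pyruvate kinase of red cells and liver and no member of the list, was at 152 to 161 CPM in Young MEPs. Eno2, the neuronal enolase, had 113 and 177 counts in Young HSCs, 7 to 68 in the MPPs and 0 in the Young GMP, MEP and CLP libraries. It was at least 9.74-fold, 9.66-fold and 8.44-fold lower than the MPP mean against a floor of 3 counts per library.

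Lactate dehydrogenase is made of the pyruvate-reducing subunit Ldha and the heart-type subunit Ldhb, and lactate leaves through the transporters Slc16a1 (MCT1) and Slc16a3 (MCT4). Ldha was at 349.6 ± 19.8 CPM per kb (SD, n = 2) in Young HSCs, 235 to 342 across the MPP libraries, 648 ± 2.20 in GMPs and 615 ± 5.67 in MEPs. Ldhb was at 134 ± 9.89 CPM per kb in Young HSCs, 54.2 to 97.2 across the MPPs, 52.9 ± 2.65 in GMPs, 36.8 ± 1.58 in CLPs and 1.96 ± 0.573 in MEPs. The Young HSC libraries therefore had the most Ldhb of the 8 fractions and the GMP and MEP libraries the most Ldha. Slc16a1 was -0.59 ± 0.07, adjusted p = 3.40e-07 in HSCs, 1.67 ± 0.06 in GMPs, 2.84 ± 0.06 in MEPs and 0.97 ± 0.06 in CLPs (log2 against MPPs), and the Young HSC libraries, at 90.7 and 83.4 CPM, were the lowest of the 8 Young groups. Slc16a3 was 1.69 ± 0.12 in GMPs and was not called in HSCs (-0.07 ± 0.14) or MEPs (-0.29 ± 0.15).

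The kinases Pdk1, Pdk2, Pdk3 and Pdk4 restrain pyruvate dehydrogenase inside mitochondria. Pdk2 was 0.60 ± 0.11 in Young HSCs and -2.05 ± 0.15 in GMPs, and Pdk1 was -0.35 ± 0.08 and 0.39 ± 0.08 (log2 against MPPs). The Pdk1 call in HSCs was lost with GC and length offsets and without either Young HSC library. Pdk3 was called in CLPs alone (-0.79 ± 0.07). Pdk4 was read at 48 and 57 counts in Young HSCs, 3 to 25 in the MPPs and 0 in Young GMPs, MEPs and CLPs. It was at least 3.07-fold, 3.04-fold and 2.66-fold lower than the MPP mean. The kinase Pdk4 was thus read in HSCs and MPPs only, within this depth.

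Hif1a and Epas1 are the oxygen-labile subunits of the hypoxia-inducible factors, and Vhl and the Egln enzymes remove them. Hif1a was -0.32 ± 0.09 in HSCs, 0.37 ± 0.08 in GMPs and -1.11 ± 0.09 in MEPs. Epas1 had 29 and 30 counts in Young HSCs, 0 to 36 in the MPPs and 0 in Young MEPs, at least 5.0-fold lower than the MPP mean. The Epas1 call in MEPs was lost without any 1 of 6 of the 10 libraries, while that of Hif1a held without each. With offsets for GC content and length the Hif1a calls in HSCs and GMPs were lost. Vhl was 0.52 ± 0.07 and Egln2 0.39 ± 0.08 in HSCs, the Egln2 call being lost with those offsets. Egln1, 27.9% of whose variance lay between duplicates, was 1.08 ± 0.33 in GMPs and 1.30 ± 0.32 in CLPs, and Egln3 was 0.90 ± 0.10 in GMPs and -4.99 ± 0.18 in MEPs. The Egln1 call in GMPs was lost with the DESeq2 test and with DESeq2 size factors. The mitophagy receptors Bnip3 and Bnip3l were 0.41 ± 0.09 and 0.38 ± 0.07 in HSCs. Vegfa, the angiogenic growth factor, was -0.55 ± 0.15 in GMPs, -2.0 ± 0.17 in MEPs and 0.20 ± 0.14 in HSCs, the last not called.

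The largest called differences of Young HSCs from the MPPs were in Pdk4 (2.86 ± 0.38), Eno2 (2.57 ± 0.35), Aldoc (1.15 ± 0.20), Hk3 (-1.06 ± 0.14), Slc2a1 (0.90 ± 0.14), Ldhb (0.84 ± 0.09) and Aldoa (0.73 ± 0.06). They include the minor isoforms of enolase, aldolase and pyruvate dehydrogenase kinase, all higher in HSCs, and Hk3, lower. Among CLPs, the largest beside Eno2 and Pdk4 were Hk3 (-1.87 ± 0.16), Aldoc (-1.77 ± 0.27), Pfkm (-1.56 ± 0.08), Hk1 (-1.47 ± 0.13), Slc2a3 (-1.12 ± 0.09) and Egln3 (-1.12 ± 0.12), all lower, and Egln1, higher.

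**Figure D1:**
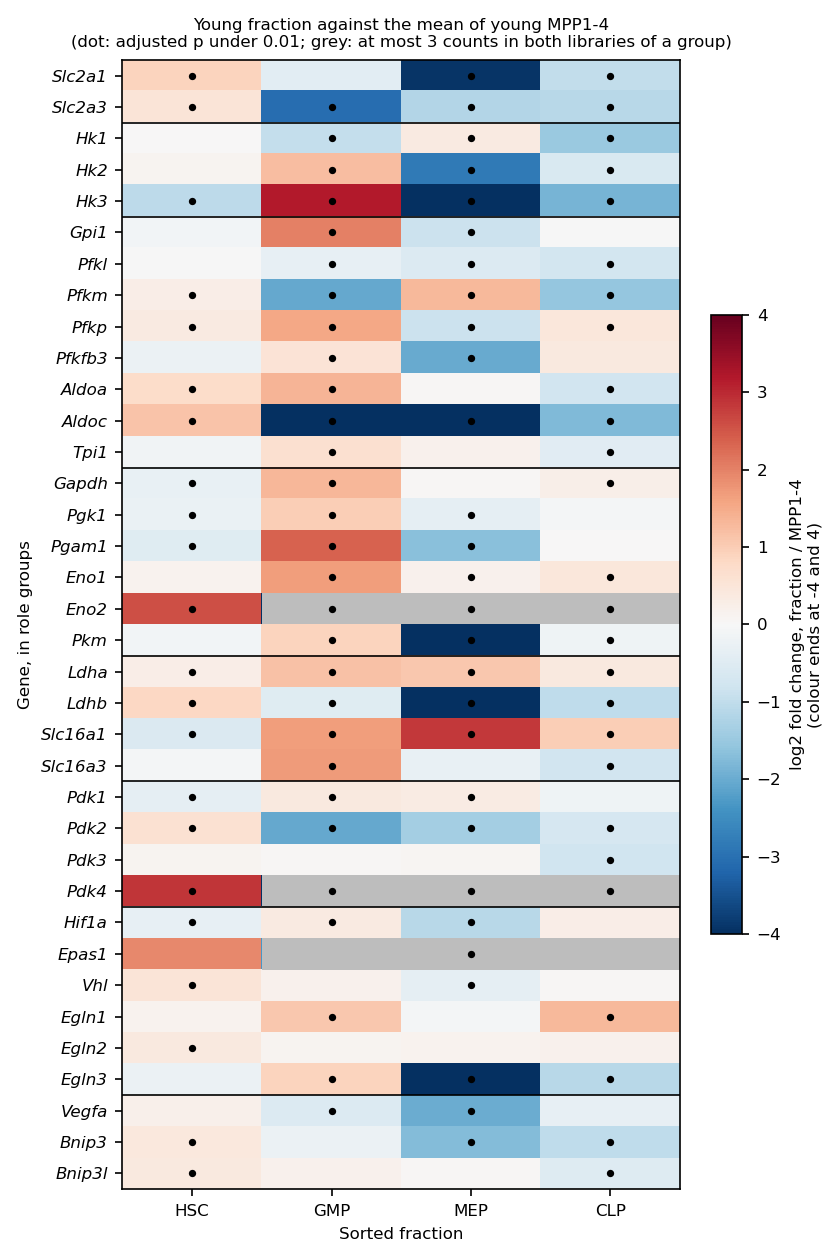
Young HSCs, GMPs, MEPs and CLPs (columns) against the mean of Young MPP1 to MPP4, for the 36 genes in order of role (rows); colour is the fitted log2 fold change, with the scale ending at ±4, a dot marks adjusted p below 0.01, and grey marks at most 3 counts in both libraries of the fraction. The GMP column holds 19 genes called higher and the MEP column 22 called lower, those in grey included.

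In Aged MPPs 5 of the 6 genes of lower glycolysis and the lactate genes Ldha and Slc16a1 rose, while Aldoc, Pdk2 and Vegfa fell. Over the mean of MPP1 to MPP4, 12 of the 36 genes were called higher, against 18.9% of all genes tested, and 10 lower, against 17.7%. The members' median log2 fold change was -0.02 and that of all genes tested -0.04. Both shares were above those of all genes. The 7 genes Gapdh, Pgk1, Pgam1, Eno1, Pkm, Ldha and Slc16a1 were higher in each of MPP1, MPP2, MPP3 and MPP4, and Aldoc, Pdk2 and Vegfa were lower in each of the 4. No member was called higher in one MPP fraction and lower in another. The share of all genes called in each of the 4 fractions was not computed. Of these 10 genes, Ldha, Pgk1 and Pkm kept their call in each fraction without any 1 of its libraries, whereas Gapdh, Pgam1, Eno1, Slc16a1, Aldoc, Pdk2 and Vegfa each lost theirs in at least 1 fraction. Over the MPP mean the calls of all 10 held without any 1 of the 16 libraries. Marrow was pooled by age, so leaving out 1 library does not probe a difference that fractions of the same pool may share. Each fraction taken alone, 8 genes were higher and 3 lower in MPP1 (all genes 4.71% and 2.09%), 7 and 3 in MPP2 (4.49% and 3.31%), 8 and 5 in MPP3 (8.14% and 5.79%), and 11 and 6 in MPP4 (10.3% and 6.27%). The members' share called higher was above that of all genes in each fraction alone, while the medians of the 36 genes (-0.03, 0.00, -0.07 and 0.04) lay within 0.1 of those of all genes (0.00, -0.02, -0.04 and -0.02). The MPP1 counts rest on single libraries: without Young MPP1 replicate 1, 4 members in place of 11 were called, without Young replicate 2, 7, and without Aged replicate 2, 6. With offsets for GC content and length, 8 members were higher and 5 lower in MPP1.

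Ldha, which turns pyruvate into lactate, had the largest mean rise of the 7. It stood at 922 and 952 CPM in Young and 1424 and 1404 CPM in Aged MPP1. In MPP2 Ldha read 1115 and 1132 CPM in Young and 1670.5 and 1578 CPM in Aged libraries. In MPP3 and MPP4 its levels were 1026 and 993 CPM in Young and 1735 and 1707 CPM in Aged MPP3, and 779 and 827 CPM in Young and 1628 and 1551 CPM in Aged MPP4. Aged and Young libraries did not overlap in any of the 4 fractions, with the Aged level 0.53 to 0.99 higher on the log2 scale, with a mean of 0.72 ± 0.03, adjusted p = 3.42e-13. Slc16a1, which exports lactate with a proton, was at 122 and 123 CPM in Young and 160.1 and 179 CPM in Aged MPP1. In MPP2 Slc16a1 read 155 and 148 CPM in Young and 209 and 205 CPM in Aged libraries. In MPP3 and MPP4 Slc16a1 stood at 141 and 138 CPM in Young and 234 and 218 CPM in Aged MPP3, and 111 and 119 CPM in Young and 214 and 211 CPM in Aged MPP4. Its mean change was 0.63 ± 0.04, adjusted p = 1.38e-10, and its Aged libraries too lay above the Young in all 4 fractions. Differences between the MPP fractions were not tested.

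Pgk1, which makes the first ATP of the lower pathway, was at 279 and 296 CPM in Young and 397 and 387 CPM in Aged MPP1. In MPP2 Pgk1 read 302 and 312 CPM in Young and 443 and 434 CPM in Aged libraries. In MPP3 and MPP4 the values were 318 and 322 CPM in Young and 469 and 429 CPM in Aged MPP3, and 291 and 314 CPM in Young and 442 and 456 CPM in Aged MPP4, a mean change of 0.50 ± 0.04, adjusted p = 3.60e-10. The Aged libraries lay above the Young in all 4 fractions. Pkm, which makes pyruvate, was at 1228 and 1249.5 CPM in Young and 1728 and 1668 CPM in Aged MPP1. In MPP2 Pkm read 1215 and 1218 CPM in Young and 1638 and 1654 CPM in Aged libraries. In MPP3 and MPP4 Pkm read 1343 and 1421 CPM in Young and 1746 and 1997 CPM in Aged MPP3, and 1314 and 1308 CPM in Young and 1763 and 1829 CPM in Aged MPP4, and it rose in each, by 0.44 to 0.46 (log2), with a mean of 0.45 ± 0.03. The Aged libraries were again the higher in each. Pgam1, a mutase, went from 337 in both to 424 and 421 CPM in MPP1 and from 391 and 399 to 527 and 520.3 in MPP2. In MPP3 and MPP4 Pgam1 went from 497 and 487 to 641 and 575 in MPP3 and from 379 and 405 to 562 and 589 in MPP4, with a mean of 0.40 ± 0.03. Gapdh rose by 0.38 to 0.71 and Eno1 by 0.36 to 0.58 across the 4 fractions, with means of 0.52 ± 0.04 and 0.44 ± 0.04. The lower pathway thus had 5 of 6 genes called higher in each MPP fraction, and the sixth, Eno2, fell over the 4 fractions. Its counts were small, 60 to 68 in Young and 31 to 33 in Aged MPP1, 21 to 26 and 3 to 4 in MPP2, 8 to 36 and 5 to 8 in MPP3, and 7 to 16 and 2 to 3 in MPP4. It was called over their mean (-1.90 ± 0.34, adjusted p = 2.28e-04) and in none of the 4 alone. Young and Aged counts of Eno2 in MPP3 overlap.

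Above Gapdh the changes were smaller and mixed. Tpi1 rose by 0.39 ± 0.04, Pfkp by 0.36 ± 0.05, Pfkl, the liver phosphofructokinase, by 0.22 ± 0.03 and Gpi1 by 0.17 ± 0.03 over the MPP mean. All 4 were called in MPP4, where they rose by 0.52 ± 0.09, 0.56 ± 0.11, 0.37 ± 0.07 and 0.28 ± 0.07. Tpi1 was also called in MPP1 (0.36 ± 0.09), a call lost without any 1 of its 4 libraries, and in MPP3 (0.38 ± 0.09), lost without Young MPP3 replicate 1. The Gpi1 call in MPP4 was lost with DESeq2 size factors. Pfkm fell by 0.25 ± 0.04 over the mean, so that the 3 phosphofructokinase genes did not move together. Aldoa, which carries most of the aldolase RNA, was not called (-0.08 ± 0.04), nor were Pfkfb3 (-0.08 ± 0.09), Hk1 (-0.02 ± 0.07), Hk2 (-0.11 ± 0.09), Hk3 (-0.01 ± 0.08) or Slc2a1 (0.00 ± 0.10). Aldoc fell from 45.7 and 41.8 to 16.9 and 20.9 CPM in MPP1 and from 25.9 and 28.0 to 10.9 and 10.0 in MPP2. In MPP3 and MPP4 Aldoc went from 31.9 and 34.6 to 10.4 and 10.3 in MPP3 and from 26.8 and 26.6 to 9.50 and 7.95 in MPP4. All Aged libraries were below all Young ones within each fraction. Its log2 changes were -1.68 to -1.21, with a mean of -1.47 ± 0.15, adjusted p = 6.23e-08, while the calls in MPP1 and MPP2 alone were lost without any 1 of their 4 libraries. Slc2a3 went from 161 and 177 to 113 and 134 CPM in MPP3 and from 147 in both to 103 and 96.3 in MPP4, where it was called (-0.46 ± 0.10, lost without any of 3 libraries, and -0.56 ± 0.10), and fell by 0.39 ± 0.05 over the 4 fractions.

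Ldhb fell where Ldha rose. It was at 107 and 116 CPM in Young and 65.2 and 75.0 CPM in Aged MPP3, and at 125 and 140.5 CPM in Young and 60.5 and 60.3 CPM in Aged MPP4, where both falls were called (-0.67 ± 0.13 and -1.14 ± 0.13), the MPP3 call being lost without Young MPP3 replicate 2 or Aged MPP3 replicate 1. In MPP1 and MPP2 the levels were 153 and 145 CPM in Young and 111 and 109 CPM in Aged MPP1, and 87.1 and 85.1 CPM in Young and 61.0 and 62.6 CPM in Aged MPP2, neither difference being called alone (-0.43 ± 0.13 and -0.48 ± 0.13). The mean change of Ldhb was -0.68 ± 0.06, adjusted p = 2.15e-08. The ratio of Ldha to Ldhb, each in CPM per kb, stood at 2.96 and 2.79 in the Young MPP4 libraries and 12.8 and 12.2 in the Aged ones. In MPP1 it went from 2.87 and 3.12 to 6.08 and 6.10, in MPP2 from 6.08 and 6.31 to 13 and 12.0 and in MPP3 from 4.54 and 4.05 to 12.6 and 10.8. In HSCs the ratio was 2.65 and 2.58 in Young and 4.09 and 4.20 in Aged libraries. It was thus higher with age in all 5 of these fractions, with no overlap. In GMPs it was 11.9 and 12.7 in Young and 9.71 and 9.56 in Aged libraries, and in CLPs 10.1 and 10.7 in Young and 3.70 and 5.35 in Aged libraries, both lower with age. In MEPs it was 258 and 398 in Young and 695 and 1138 in Aged libraries, where Ldhb had 58 and 34 counts in the Young and 14 and 9 in the Aged libraries. With 2 libraries against 2, a two-sided exact permutation test cannot go below p = 0.333, so the ratios are given as values.

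Among the kinases that restrain pyruvate dehydrogenase, Pdk2 fell in each MPP fraction. It was at 59.7 and 57.9 CPM in Young and 33.9 and 34.6 CPM in Aged MPP1. In MPP2 Pdk2 read 39.0 and 42.2 CPM in Young and 22.3 and 21.1 CPM in Aged libraries. Pdk2 in MPP3 and MPP4 read 45.0 and 51.6 CPM in Young and 27.7 and 25.8 CPM in Aged MPP3, and 53.7 and 57.3 CPM in Young and 29.9 and 27.8 CPM in Aged MPP4, a mean change of -0.87 ± 0.08, adjusted p = 9.10e-09. Aged libraries were below Young throughout, while the call was lost without any 1 of the 4 libraries in MPP1 and without any 1 of 2 libraries in MPP2 and in MPP3. Pdk3 rose by 0.20 ± 0.04 over the MPP mean, and Pdk1 (0.08 ± 0.05) and Pdk4 (-0.13 ± 0.32, at 0 to 26 counts) were not called. The summed level of the 4 kinases was 326–334 CPM in Young and 321–331 in Aged MPP4, of which Pdk2 was the part given above.

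Of the oxygen-sensing genes, Hif1a (-0.22 ± 0.05) and Vhl (-0.22 ± 0.05) fell slightly over the MPP mean, with no call in any MPP fraction alone. The Hif1a call was lost without any 1 of 6 of the 16 MPP libraries. Egln1 (-0.18 ± 0.23), Egln2 (0.11 ± 0.05), Egln3 (-0.02 ± 0.07) and Epas1 (-2.18 ± 0.82, at 0 to 36 counts in the Young and 0 to 9 in the Aged libraries) were not called. Vegfa, a HIF target, was at 51.2 and 43.9 CPM in Young and 22.5 and 21.4 CPM in Aged MPP1. In MPP2 Vegfa read 38.1 and 30.2 CPM in Young and 14.2 and 17.1 CPM in Aged libraries. Vegfa in MPP3 and MPP4 read 33.8 and 35.5 CPM in Young and 13.7 and 15.5 CPM in Aged MPP3, and 113 and 84.7 CPM in Young and 28.9 and 33.2 CPM in Aged MPP4. It fell in each fraction, with log2 changes of -1.67 to -1.12 and a mean of -1.29 ± 0.09, adjusted p = 5.54e-10, while the HIF targets Ldha and Pgk1 rose. Bnip3l, a mitophagy receptor, fell by 0.32 ± 0.05 over the mean and was called in MPP4 (-0.53 ± 0.09), whereas Bnip3 (-0.20 ± 0.06) and Slc16a3 (0.07 ± 0.09) were not called. The core motif letters described above were found on both sides: 10 of the 12 genes that rose over the MPP mean and 6 of the 8 genes that fell and had a promoter window held ACGTG or GCGTG, as did 13 of the 13 genes not called that had a window.

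**Figure D2:**
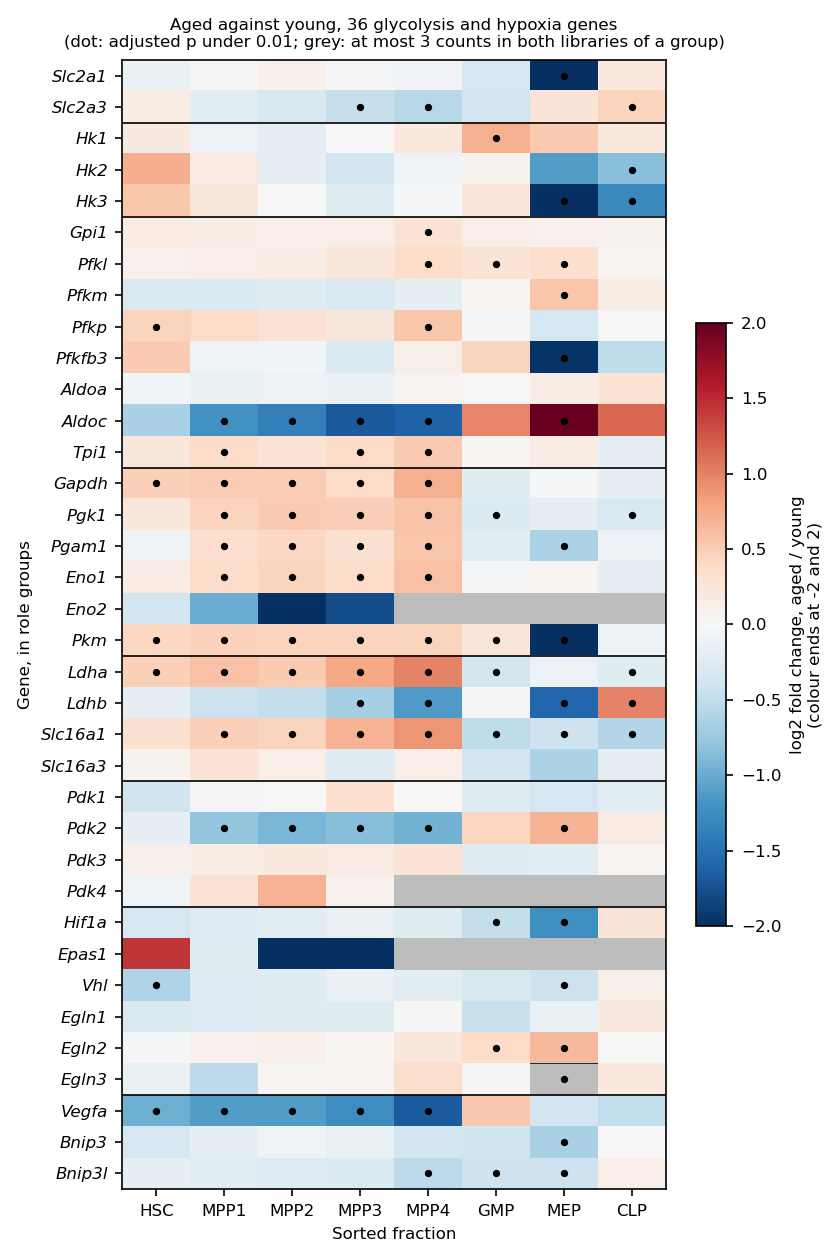
Fitted log2 fold change of Aged against Young cells (colour, scale ending at ±2) for the 36 genes in order of role (rows) in the 8 fractions (columns); a dot marks adjusted p below 0.01 and grey marks at most 3 counts in both libraries of a group. The block from Gapdh to Slc16a1 is on the higher side in MPP1 to MPP4, apart from Eno2 and Ldhb, and Ldha, Pgk1 and Slc16a1 are on the lower side in GMPs, MEPs and CLPs.

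Other genes moved in the same MPP libraries. All 12 of 12 S-phase genes and 12 of 12 mitotic genes rose over the MPP mean, their summed level going from 4764–4899 to 6860.4–6907 CPM and from 1611–1616 to 2379–2501 CPM in MPP4. In the other MPPs the S-phase sum went from 3813–3828 to 5622–5649 CPM in MPP1, from 5675–5679 to 6584–6704 in MPP2 and from 4833–4972 to 6675–6817 in MPP3. Erythroid markers fell, 12 of 13, from a summed 2977–3237 to 1411–1425 CPM in MPP2 and from 3045–3112 to 1131–1132 in MPP3. So did 10 of 10 macrophage markers, from 77.0–89.9 to 14.5–15.4 CPM in MPP4, and 5 of 9 B-cell markers. Of 10 neutrophil markers, 6 were lower in MPP2 and 6 in MPP3, from a summed 4660.5–4925 to 2285–2305 CPM in the latter. In MPP1 1 was higher, at 300.2–316 and 440–685 CPM in sum, and in MPP4 2 were higher, at 799.7–854 and 894–928. Over the 4 fractions 5 of 8 megakaryocyte markers were lower and 1 higher. The part of these changes in the values of the 36 genes was not tested.

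**Figure D3:**
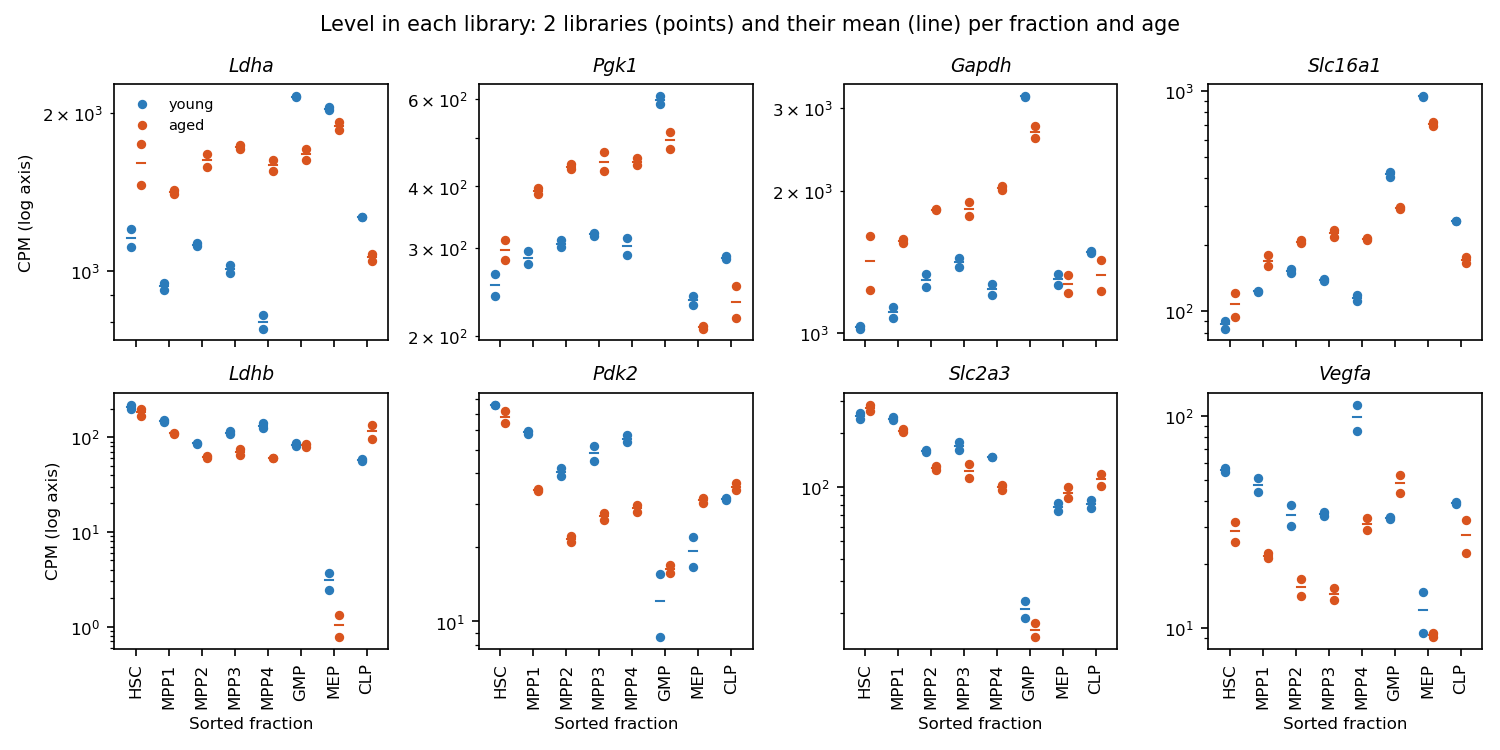
Level of Ldha, Pgk1, Gapdh, Slc16a1, Ldhb, Pdk2, Slc2a3 and Vegfa in each of the 32 libraries (points; CPM on a log axis) by fraction, Young and Aged in separate colours. Ldha, Pgk1, Gapdh and Slc16a1 lie higher in Aged MPP1 to MPP4 with no overlap, Ldhb, Pdk2, Slc2a3 and Vegfa lie lower, and Ldha, Pgk1 and Slc16a1 lie lower in Aged GMPs, MEPs and CLPs, the Ldha difference in MEPs and the Pgk1 difference in MEPs not being called.

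In HSCs, Ldha, Pkm, Gapdh and Pfkp were higher with age and Vegfa and Vhl lower. Here 4 of the 36 genes were called higher, against 3.74% of all genes tested, and 2 lower, against 1.66%. Both shares exceeded the background, while the medians of the 36 genes and of all genes were 0.02 and 0.02 (log2). Ldha was at 1111 and 1203 CPM in Young and 1461 and 1744 CPM in Aged HSCs (0.47 ± 0.06, adjusted p = 2.65e-05), and Pkm at 1155 and 1224 CPM in Young and 1466 and 1698 CPM in Aged HSCs (0.41 ± 0.06). Vegfa, the largest change among the called genes, was at 57.1 and 54.6 CPM in Young and 31.6 and 25.6 CPM in Aged HSCs (-0.97 ± 0.18, adjusted p = 0.0013), and the Aged libraries were the lower. Gapdh (0.47 ± 0.08) and Pfkp (0.44 ± 0.10) were also called higher and Vhl, the destroyer of HIF proteins, lower (-0.62 ± 0.09). Slc16a1 (0.30 ± 0.08), Pgk1 (0.23 ± 0.07), Pgam1 (-0.07 ± 0.06), Pdk2 (-0.16 ± 0.15) and Aldoc (-0.65 ± 0.27) were not called, and Epas1, at 29 and 30 counts in Young and 56 and 108 in Aged HSCs, gave 1.43 ± 0.75 without a call. The calls of Ldha, Pkm and Vhl held without any 1 of the 4 HSC libraries, that of Vegfa was lost without Young replicate 1 or Aged replicate 2, that of Gapdh without any of 3 libraries and that of Pfkp without any of the 4. In all, 3 members in place of 6 were called without Young HSC replicate 1. Fitted on the 4 HSC libraries alone none of the 6 was called by edgeR, with 16 members at an unadjusted p below 0.05. In the same libraries 8 of 12 mitotic and 5 of 12 S-phase genes were higher, and 7 of 10 neutrophil markers, from 278–303 to 651–845 CPM in sum; their part was not tested.

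In GMPs Ldha and Slc16a1 moved opposite to the MPPs, while Ldhb and Slc16a3 were not called. Ldha was at 2149.5 and 2139 CPM in Young and 1627 and 1706 CPM in Aged GMPs (-0.36 ± 0.06, adjusted p = 1.50e-04), and Slc16a1 at 407 and 429.8 CPM in Young and 291 and 296 CPM in Aged GMPs (-0.51 ± 0.08, adjusted p = 8.19e-05). Aged libraries were below Young for both, and both calls held without any 1 of the 4 GMP libraries. Of the set, 4 of the 36 genes were called higher, against 9.93% of all genes tested, and 5 lower, against 8.97%, shares of the 36 genes near the background. The members' median log2 fold change was -0.02 and that of all genes tested 0.00. Hk1, the largest change among the called genes, was at 183 and 246 CPM in Young and 369.7 and 332 CPM in Aged GMPs (0.71 ± 0.15). Pgk1 was at 609 and 587 CPM in Young and 477 and 514 CPM in Aged GMPs (-0.27 ± 0.07) and Pkm at 2392 and 2417 CPM in Young and 2835 and 2844 CPM in Aged GMPs (0.24 ± 0.06). The other calls were Egln2 (0.36 ± 0.10) and Pfkl (0.28 ± 0.07) higher and Hif1a (-0.48 ± 0.11) and Bnip3l (-0.42 ± 0.09) lower. With offsets for GC content and length only lower calls were made, 6, and Hk1, Pfkl, Pgk1, Pkm, Hif1a, Egln2 and Bnip3l were no longer called. The Pgk1 and Pkm calls were also lost without any 1 of the 4 libraries. Without Young GMP replicate 1, 5 members in place of 9 were called, and without Aged GMP replicate 1, 3. Erythroid markers fell in these libraries, 8 of 13, from a summed 1366–1609 to 83.1–185 CPM. Of the cell-cycle genes, 7 of 12 S-phase genes were lower and 10 of 12 mitotic genes higher, and their part was not tested.

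In MEPs, 5 of the 36 genes were called higher, against 9.08% of all genes tested, and 12 lower, against 11.7%, and the members' lower share was well above the background. The members' median log2 fold change was -0.20 and that of all genes tested 0.00. Pkm fell from 70.4 and 71.0 CPM in the Young libraries to 13.7 and 14.3 in the Aged ones (-2.34 ± 0.07, adjusted p = 7.91e-16), a call that held without any 1 library. Pklr, whose product takes over from Pkm in red cells, was at 152 to 161 CPM in Young and 189 to 191 CPM in Aged MEPs. Egln3, the hypoxia-inducible hydroxylase, had 12 counts in each Young library and 0 in each Aged one, at least 2.90-fold lower against a floor of 3 counts per library. Hk3 went from 12 and 45 to 4 and 0 counts, Slc2a1 from 35 and 105 to 13 and 8, and Aldoc from 0 and 7 to 30 and 23, so that these folds rest on few reads. Their log2 changes were -3.37 ± 0.68, -2.33 ± 0.43 and 3.28 ± 0.74, ranging from -7.79 to -2.09, from -3.02 to -1.29 and from 2.19 to 8.04 when 1 library was left out, and the calls of Hk3 and Aldoc were each lost without any 1 of 2 libraries. Ldhb fell by 1.58 ± 0.31, Pfkfb3 by 1.96 ± 0.30, Hif1a by 1.22 ± 0.12, Pgam1 by 0.63 ± 0.07 and Slc16a1 by 0.42 ± 0.08, with Aged libraries below Young for each. With 1 library left out, Pfkfb3 ranged from -2.45 to -1.38 and Ldhb from -2.02 to -1.27, its call lost without Young MEP replicate 1 or Aged MEP replicate 2. Pgam1 was at 130.3 and 122 CPM in Young and 85.2 and 77.9 CPM in Aged MEPs, and Slc16a1 at 945 and 939.7 CPM in Young and 690.4 and 722 CPM in Aged MEPs. Pdk2 was at 22.2 and 16.7 CPM in Young and 30.3 and 31.8 CPM in Aged MEPs (0.68 ± 0.16), higher with age where it fell in the MPPs. With 1 library left out Pdk2 ranged from 0.44 to 0.87, its call lost without Young MEP replicate 2, Aged MEP replicate 1 or Aged MEP replicate 2. Like Pdk2, Pfkm (0.55 ± 0.08), Egln2 (0.65 ± 0.10) and Pfkl (0.32 ± 0.07) rose, the calls of Pdk2 and Pfkl being lost with GC and length offsets. Vhl (-0.43 ± 0.10), Bnip3 (-0.65 ± 0.15) and Bnip3l (-0.41 ± 0.09) fell, the last pair losing their calls with those offsets. Fitted on the 4 MEP libraries alone, 4 members in place of 17 were called by edgeR, with 21 at an unadjusted p below 0.05. The calls lost in that fit included those of Pdk2, Slc2a1, Pfkl, Pfkm, Pfkfb3, Aldoc, Ldhb, Vhl, Egln2, Bnip3 and Bnip3l.

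Markers of several other cell types fell in the same MEP libraries, while T- and NK-cell markers, at 3.73–4.16 CPM in Young and 3.65–6.80 in Aged MEPs, did not. The summed level of 9 B-cell markers was 206–211 CPM in Young MEPs and 0.861–1.22 CPM in Aged MEPs, with Cd79a, Igll1, Pax5, Ebf1 and Rag1 among those at 0 in both Aged libraries. Macrophage markers went from 9.55–15.4 to 0–0.602 CPM in sum, with C1qa, C1qb, Cd5l, Spic and Hmox1 at 0 in the Aged libraries, and neutrophil markers from 261–289.7 to 28.5–125. The part of these cells in the Pkm, Hk3, Hif1a, Slc2a1 and Egln3 values was not tested. Erythroid markers, which define the fraction, summed to 14293–14358 CPM in Young and 13659–14306 CPM in Aged MEPs. Without Aged MEP replicate 1, 11 members in place of 17 were called.

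In CLPs, 2 of the 36 genes were called higher, against 5.71% of all genes tested, and 5 lower, against 4.73%, the higher share being near the background and the lower one above it. The members' median log2 fold change was 0.00 and that of all genes tested 0.00. Ldhb rose, from 59.6 and 56.1 CPM in the Young libraries to 134 and 95.8 in the Aged ones (0.99 ± 0.13, adjusted p = 1.70e-05), and so did Slc2a3, from 84.7 and 76.7 to 118 and 102 CPM (0.45 ± 0.10). Hk3, the largest change, was at 25.6 and 27.7 CPM in Young and 9.65 and 12.1 CPM in Aged CLPs (-1.29 ± 0.20, adjusted p = 1.20e-04), and Hk2 fell by 0.84 ± 0.21. The myeloid and the inducible hexokinase were thus lower in Aged CLPs, and the heart-type dehydrogenase and GLUT3 higher. Slc16a1 was at 258 and 257 CPM in Young and 165 and 176 CPM in Aged CLPs (-0.59 ± 0.08), Ldha at 1269.8 and 1267 CPM in Young and 1047 and 1081 CPM in Aged CLPs (-0.25 ± 0.06) and Pgk1 at 286 and 289 CPM in Young and 217 and 252 CPM in Aged CLPs (-0.30 ± 0.07). All 3 were lower in Aged CLPs, and the calls of Hk3, Ldhb and Slc16a1 held without any 1 of the 4 CLP libraries, whereas Slc2a3, Hk2, Pgk1 and Ldha were each lost without any of 3 of them. Fitted on the 4 CLP libraries alone none of the members was called by edgeR, with 13 at an unadjusted p below 0.05. In the fit of all libraries, 3 in place of 7 were called without Young CLP replicate 1, without Young replicate 2 or without Aged replicate 1. The 2 age groups of CLPs differed in other cells' genes: basophil and mast-cell markers summed to 1739.9–1788 CPM in Young and 8.26–12.3 in Aged libraries, and B-cell markers to 2804–2876 and 1355–1369.8. Neutrophil markers summed to 2025–2083 and 374–385, erythroid markers to 2544–2647 and 249–985 and macrophage markers to 204–224 and 7.21–9.57. Others went the other way: 7 of 8 megakaryocyte markers were called higher in Aged CLPs, from a summed 39.3–40.8 to 144–232 CPM, and T- and NK-cell markers summed to 39.7–41.6 and 70.4–107. Of 12 S-phase genes 9 were lower and of 12 mitotic genes 7, and the part of any of these in the values of the members was not tested.

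**Figure D4:**
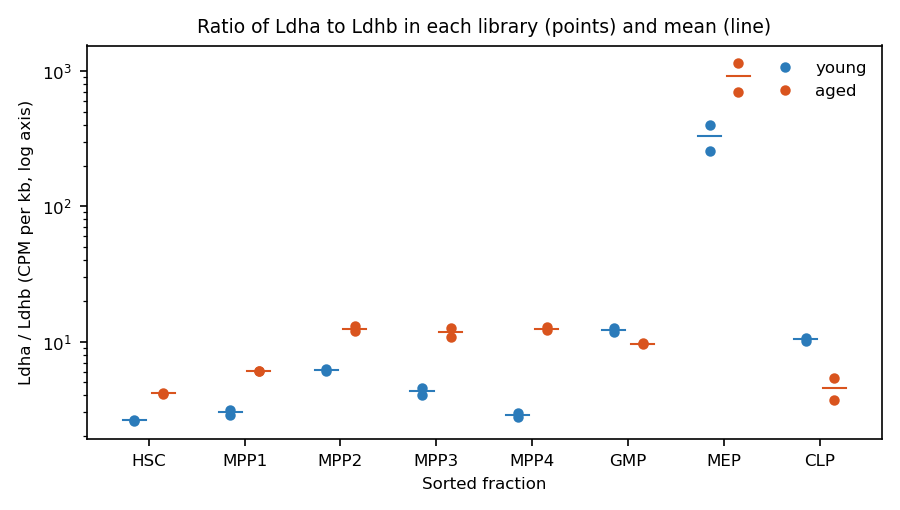
Ratio of Ldha to Ldhb, each in CPM per kb of exon (log axis), in each library by fraction, Young and Aged in separate colours. The ratio is higher in Aged HSCs and MPP1 to MPP4, at 12.8 and 12.2 against 2.96 and 2.79 in MPP4, and lower in Aged GMPs and CLPs; the MEP ratios rest on 9 to 58 Ldhb counts per library.

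Whether a change with age differed between fractions was tested directly, as the age difference in a fraction minus its mean over MPP1 to MPP4; these 4 contrasts share the 16 MPP libraries. For GMPs, 4 members had a more positive difference (all genes 12.7%) and 8 a more negative one (13.8%), against a split of 3 and 13 with GC and length offsets, and the leading genes were Vegfa (1.83 ± 0.21, adjusted p = 7.58e-07), Pdk2 (1.30 ± 0.19), Slc16a1 (-1.14 ± 0.09) and Ldha (-1.08 ± 0.07). For MEPs the counts were 6 (10.2%) and 15 (14.7%), with Pkm at -2.78 ± 0.08, adjusted p = 5.10e-16. Aldoc (4.74 ± 0.72), Hk3 (-3.36 ± 0.69) and Egln3, at 0 counts in Aged MEPs, differed as well, on few reads. In MEPs the share on the lower side was well above that of all genes, as were both shares in CLPs. For CLPs they were 9 (10.3%) and 9 (12.3%), led by Aldoc (2.62 ± 0.35), Ldhb (1.67 ± 0.15, adjusted p = 3.45e-08), Hk3 (-1.28 ± 0.22) and Slc16a1 (-1.22 ± 0.09). For HSCs 1 member was more positive (1.91%), Slc2a3 (0.54 ± 0.11), and 1 more negative (1.1%), Pgam1 (-0.47 ± 0.07). The Slc2a3 call was lost without Young HSC replicate 1, Young HSC replicate 2 or Aged HSC replicate 1, among others, while that of Pgam1 held without each library. The 8 genes Gapdh, Pgk1, Pgam1, Eno1, Ldha, Slc16a1, Pdk2 and Vegfa differed from the MPPs in GMPs, in MEPs and in CLPs each: the first 6 with a more negative and the last 2 with a more positive change. The share of all genes that differed in each of GMPs, MEPs and CLPs was not computed. For Vegfa the MEP difference held in 10 of the 20 fits that left out 1 library, and the CLP difference in 11 of 20. The Vegfa call in CLPs was also lost with replicate number as a block, and that in MEPs with GC and length offsets and that block. Across the 144 tests of a differing age change, 26 members had at least 1 call. The matching share of all genes was not computed. The HSC count, 2 in all, was 1 without Young HSC replicate 2, 4 without Young HSC replicate 1, Young MPP3 replicate 1, Aged HSC replicate 1, Aged HSC replicate 2, Aged MPP2 replicate 2 or Aged MPP4 replicate 2. It was 6 without Young MPP4 replicate 2 or Aged MPP3 replicate 1 and 7 without Aged MPP3 replicate 2. It split into 1 and 2 with GC and length offsets and 2 and 1 with DESeq2 size factors.

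Over the 288 comparisons of a member with age in a fraction, 49 were called higher and 41 lower, 28 members were called in at least 1 fraction and 11 in at least 4. The share of all genes tested that meets these counts was not computed, so they are not set against a background. Aldoa, Eno2, Slc16a3, Pdk1, Pdk3, Pdk4, Epas1 and Egln1 were called in no fraction. Slc2a3, Aldoc, Pgk1, Pgam1, Pkm, Ldha, Ldhb, Slc16a1 and Pdk2 were called higher in at least 1 fraction and lower in another, in each case with the MPPs on one side and GMPs, MEPs or CLPs on the other. Fraction explained most of the variance of the log2 levels for a typical member, a median of 88.8% against 83.6% for all genes, while age within fractions explained 7.96% against 9.74%. Ldha had 48.5% of its variance between ages within fractions, Egln2 39.8% and Bnip3l 36.1%.

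Other genes of the same pathways were set beside the 36. For all genes tested, the shares called higher and lower were 18.9% and 17.7% over the MPP mean. They were 9.93% and 8.97% in GMPs and 3.74% and 1.66% in HSCs, and the counts below are to be read beside these shares. Of 9 genes for the entry of pyruvate into mitochondria and for pyruvate dehydrogenase, 6 rose over the MPP mean and none fell. They were led by Pdhx (0.39 ± 0.05, adjusted p = 4.55e-06), a structural part of pyruvate dehydrogenase, and Mpc1 (0.28 ± 0.05, adjusted p = 3.91e-05), a subunit of the pyruvate carrier. In GMPs 5 of these 9 fell. Of 7 pentose phosphate genes, Pgls (0.50 ± 0.05, adjusted p = 3.55e-08) and Tkt (0.13 ± 0.03, adjusted p = 0.00368) rose over the MPP mean, and Taldo1 was higher in HSCs (0.34 ± 0.07, adjusted p = 0.00329). Of 20 further glycolysis genes tested, 2 rose and 5 fell over the MPP mean, the largest falls being Pklr (-5.40 ± 0.57, adjusted p = 3.55e-06, at up to 33 counts in the MPP libraries) and Pfkfb4 (-0.72 ± 0.13, adjusted p = 6.31e-05), a bifunctional regulator of phosphofructokinase. Ldhd, a D-lactate dehydrogenase, was higher in HSCs (1.45 ± 0.24, adjusted p = 4.94e-04). Of 28 other hypoxia-responsive genes, 6 rose and 10 fell over the MPP mean, among them Hif3a (-1.99 ± 0.25, adjusted p = 8.65e-07) and the stress-induced inhibitor of mTOR signalling Ddit4 (-1.18 ± 0.16, adjusted p = 4.47e-06). In HSCs Ndrg1 (1.63 ± 0.14, adjusted p = 1.14e-07) and Bhlhe40 (1.26 ± 0.17, adjusted p = 4.39e-05) were the largest of 4 that rose, and Narf (-0.38 ± 0.08, adjusted p = 0.00312) and Plin2 (-0.40 ± 0.09, adjusted p = 0.00462) fell.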

How the data were processed

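Read counts per gene were compared between Young and Aged mice in the 8 fractions. Per the labels and the study's methods, the authors amplified cDNA with a SMARTer Ultra Low Input kit, sequenced single reads, aligned them with TopHat2 2.0.13 and Bowtie2 2.1.0 to mm10, and deposited raw counts from StringTie. No use of strand is stated and the reads carried no molecular identifiers, so counting floors cover counting error only, and genes that overlap on opposite strands cannot be told apart. The totals of 11237384 to 17723245 counts put 3 counts, the floor used for bounds, at 0.186 to 0.281 CPM. A deposited table of normalized values (32 columns) and 8 tables of the authors' own comparisons (fold changes and p-values) were not used.

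Counts were scaled by TMM (factors 0.807 to 1.11), filtered with filterByExpr and fitted with the quasi-likelihood test of edgeR 4.0.16 (R 4.3.3), with 1 mean for each of the 16 groups and 16 residual degrees of freedom. The 17 contrasts were two-sided, with Benjamini-Hochberg adjustment of p within each over 14154 genes. Genes were named by role, by size of the called change and by opposite calls between fractions. The 36 genes and the other lists were chosen with earlier results of these data known. Exon lengths and positions come from GENCODE M21 (GRCm38), and promoters from RefSeq (GRCm38.p6). The test was checked on simulated counts. Alternatives were DESeq2 1.42.0 as test and as scaling, other filters, offsets for GC content and length, replicate number as a block, an adjusted p level of 0.05, a fit of 4 libraries, and leaving out each library.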

Additional observations from a re-analysis of the deposited data

Results flagged for a closer look

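In 14 cases the change of a member with age differed between a fraction and the mean of MPP1 to MPP4 by the test of that difference, counting up to 4 genes per fraction with the largest differences (log2, edgeR quasi-likelihood). For HSCs these were Slc2a3 (0.54 ± 0.11, adjusted p = 0.00477) and Pgam1 (-0.47 ± 0.07, adjusted p = 0.000284). Slc2a3 thus had a more positive change in HSCs than in the MPPs and Pgam1 a more negative one. With 1 library left out, the Slc2a3 difference ranged from 0.43 to 0.58 and that of Pgam1 from -0.57 to -0.46. The Slc2a3 call was lost without Young HSC replicate 1, Young HSC replicate 2 or Aged HSC replicate 1, among others, whereas the Pgam1 call was kept throughout. For GMPs they were Vegfa (1.83 ± 0.21), Pdk2 (1.30 ± 0.19), Slc16a1 (-1.14 ± 0.09) and Ldha (-1.08 ± 0.07). Their Young and Aged libraries did not overlap in GMPs or in any MPP fraction. The 4 genes were picked by size from these same libraries, so this separation is no further test. Slc16a1 and Ldha were called lower with age in GMPs alone, whereas Vegfa and Pdk2 were not called there. With 1 library left out, the Pdk2 difference ranged from 0.95 to 1.81. For MEPs they were Egln3 (-6.48 ± 0.95), Aldoc (4.74 ± 0.72), Hk3 (-3.36 ± 0.69) and Pkm (-2.78 ± 0.08). The first 3 rest on at most 45 counts per MEP library, with Egln3 at 0 in the Aged ones, so that the fitted value for Egln3 depends on the prior count and is no measure of size. For CLPs they were Aldoc (2.62 ± 0.35), Ldhb (1.67 ± 0.15), Hk3 (-1.28 ± 0.22) and Slc16a1 (-1.22 ± 0.09). Marker genes of other cells moved with age in the MEP and CLP libraries, as given above, and their part in these differences was not tested.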

How the results depend on the processing

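No single call of a member changed sign under another setting except that of Pfkl: with GC and length offsets, without and with the replicate block, its age change in GMPs was -0.01, and its difference of Young GMPs from the MPPs 0.20. Members called with age in HSCs numbered 12 at an adjusted p under 0.05, 13 by DESeq2 and 0 when only the 4 HSC libraries were fitted (16 at an unadjusted p below 0.05), against 6. The fit of 4 libraries gave 17 in MPP1, 20 in MPP2, 5 in GMPs, 4 in MEPs and 0 in CLPs, against 11, 10, 9, 17 and 7; the cause was not tested. At an adjusted p under 0.05 GMPs had 16. Members whose age change in HSCs differed from the MPPs numbered 11 at that level, 10 by DESeq2 and 4 with offsets and block, against 2.

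Leaving out 1 library gave 3 to 8 members in HSCs, 4 to 8 in MPP1, 7 to 8 in MPP2, 10 to 12 in MPP3, 14 to 18 in MPP4, 3 to 7 in GMPs, 11 to 15 in MEPs, 3 to 8 in CLPs and 21 to 23 over the MPP mean. For the differences from the MPPs it gave 1 to 7 in HSCs, 10 to 15 in GMPs, 18 to 22 in MEPs and 13 to 19 in CLPs, and for Young fractions against MPPs 16 to 22 in HSCs, 25 to 30 in GMPs, 23 to 29 in MEPs and 22 to 27 in CLPs. The remaining library of a group was assumed to vary like the others.

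Replicate numbers showed no sign of pairing the samples: deviations of same-numbered Young and Aged libraries correlated at -0.06 to 0.07 within fractions. Between fractions of the same age, deviations of same-numbered libraries correlated at -0.04 to 0.08 in Young and at -0.04 to 0.04 in Aged mice. With the replicate block, 261 of the 270 single calls held and 9 were lost: Aldoc with age in MPP1 and MPP2, Pfkl in GMPs, Bnip3 in MEPs, Hk2 in CLPs, Epas1 in Young MEPs, and the differences from the MPPs of Pdk1 in MEPs and of Pfkm and Vegfa in CLPs. Depth limits Eno2, Epas1, Pdk4 and, in MEPs, Egln3, Hk3 and Aldoc, whose folds rest on few reads.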
